A study of Drosophila melanogaster with 6 samples.

Results

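Larvae that expressed an additional wild-type copy of Tip60 throughout the body were compared with larvae that carried only the driver, to find what excess Tip60 left unchanged and which small shifts recurred in every comparison of arrays. The 2 arrays labelled dTIP60WT were set against the 2 arrays labelled Control, 4 of the 6 arrays in the series. A probe set was called bright where its mean intensity over these 4 arrays was above 100, and 6750 of the 18769 tested probe sets were bright. They stood for 5705 of the 11981 genes that have a probe set of their own. A shift was counted as recurring where both dTIP60WT arrays lay above, or both below, both control arrays, that is, in all 4 array pairs. The 4 pairs are made from only 2 arrays per genotype, so that they are not 4 independent comparisons.

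Tip60 is a histone acetyltransferase of the MYST family and the catalytic subunit of a large chromatin complex that acetylates histones H4 and H2A and exchanges histone variants. In flies, as in other animals, it acts as a coactivator of transcription and in the repair of broken DNA. The gene is essential in Drosophila, and it is on the X chromosome.

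The study hybridised Affymetrix Drosophila Genome 2.0 arrays, which hold a set of short probes for each transcript, with RNA of whole larvae of 3 genotypes. Control larvae came from virgin females of the w1118 strain, dTIP60WT larvae from females with a UAS transgene of wild-type dTIP60, and dTIP60E431Q larvae from females with a UAS transgene whose acetyltransferase domain carries a substitution. All were crossed to males of the ubiquitous GAL4 driver 337, so that the driver was present in every group, the control included. Embryos were gathered over 3-hour intervals and kept at 25°C for 3 days, and each array received RNA from its own pool of 35 larvae. Each transgene was represented by 1 line, line B, with 2 pools per genotype. By the paper's table notes on the rescue crosses, the dTIP60WT insertion of this line is on the second chromosome. Its note on the test crosses with driver 337 names only lines A and C there. The control carries no UAS transgene, so that the insertion itself and the extra Tip60 cannot be told apart. The labels give no sex and no separate cultures for the pools, and p-values measure only the spread between pools. In RNA of whole larvae, fewer cells of a type and less RNA per cell cannot be told apart.

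The 4 arrays were alike in overall brightness, with median intensities from 43.6 to 45.2. Across bright probe sets the median absolute difference in log2 intensity was 0.10 between the 2 control arrays and 0.11 between the 2 dTIP60WT arrays, and it ran from 0.09 to 0.11 in the 4 pairs of a control and a dTIP60WT array. Differences of 2-fold or more numbered 81 between the control arrays and 33 between the dTIP60WT arrays, and 57 to 98 in the pairs across genotypes. Arrays of different genotypes therefore lay about as far apart as arrays of 1 genotype. All 3 measured fat body markers, all 3 muscle markers and 29 of 30 midgut markers were bright, whereas 1 of 3 measured neuron markers and 5 of 19 testis markers were.

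Tip60 was the only gene called different. Its probe set had intensities of 30.8 and 29.2 on the control arrays and 3045 and 2755 on the dTIP60WT arrays. The groups were far apart, and both control values were below the level defined as bright. Tip60 rose by 6.59 on the log2 scale (95% interval 6.26 to 6.93; limma, Benjamini-Hochberg adjusted p = 0.00425), a fold of 96.5. The positions of its probes are not given in the sources used here, and the endogenous and the transgenic transcripts were not told apart. Because the control level is dim, the size of the change depends on it and was 5.98 when 16 was added to every intensity. The size was kept when any 1 array was left out, but the call was not. The log2 change and adjusted p were 6.63 and 0.208 without control array 1, 6.55 and 0.217 without control array 2, 6.52 and 0.191 without dTIP60WT array 1, and 6.66 and 0.177 without dTIP60WT array 2.

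Tip60 was 1 of 18769 probe sets, or 0.00533%, that passed an adjusted p below 0.05 with a fold of at least 2, and 0 others did. The next lowest adjusted p was 0.216. At an unadjusted p below 0.05 there were 1051 probe sets (5.6%), 589 higher (3.14%) and 462 lower (2.46%) with dTIP60WT. Among the bright ones there were 127 (1.88%), 47 higher (0.696%) and 80 lower (1.19%). A fit whose variance prior followed the level and resisted outliers (trend and robust in limma) called 23 probe sets, 12 higher and 11 lower, and 13 of them were bright. When only bright probe sets were tested, Tip60 and Kmn1 were called, the latter at a limma adjusted p of 0.0132, and over the alternatives the adjusted p of Kmn1 ran from 0.00346 to 0.864. Both genes were bright only through the dTIP60WT arrays, so that the brightness filter was not independent of this test. By the t-test of the methods, 98 probe sets passed at an unadjusted threshold and 0 after Benjamini-Hochberg adjustment.

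Most bright transcripts were measured closely enough to bound any change. For each probe set the 95% interval of the log2 difference was taken from limma, and a probe set was called bounded where the whole interval lay within 2-fold in both directions. Of the bright probe sets 6376, or 94.5%, were bounded, against 57.8% of all tested ones. By mean level, 4.87% were bounded at intensities up to 10, 26.5% between 10 and 30, 74.8% between 30 and 100, and 93.5 to 96.3% in the 4 bands above 100. The dimmer the transcript, the less often a 2-fold change could be bounded. The observed difference was smaller than 1.1-fold for 75.1% of bright probe sets, smaller than 1.2-fold for 91.7% and smaller than 1.5-fold for 98.1%.

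**Figure D1:**
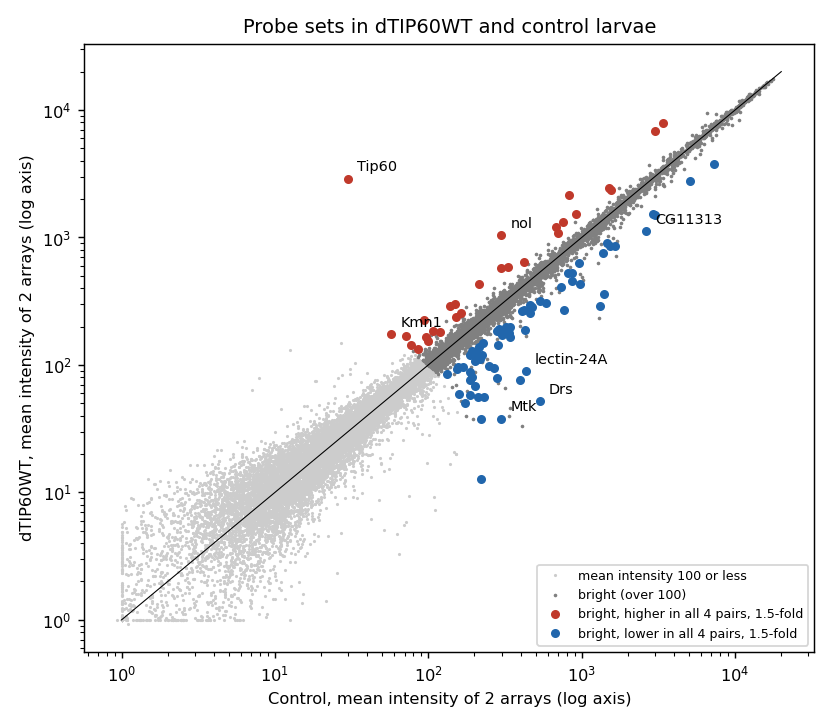
Mean intensity of each probe set on the 2 dTIP60WT arrays against the mean on the 2 control arrays, both on log axes, with the line of equality. Light grey points are probe sets with a mean of 100 or less and dark grey points are bright ones, and coloured points are the 28 bright probe sets higher and the 66 lower in all 4 pairs by at least 1.5-fold. Tip60 stands alone far above the line, and the dim points spread more widely than the bright ones.

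The protein synthesis machinery of the cytosol was among the steadiest groups. RpL32, which encodes a ribosomal protein and served the study as reference gene, measured 10179 and 10518 in intensity in the control and 10379 and 9979 with dTIP60WT. The groups overlapped, and the log2 difference was -0.02 (95% interval -0.32 to 0.28). Of the 34 cytosolic ribosomal protein genes measured, 31 were bright, and 0 of these were higher and 0 lower in all 4 pairs. All 31 were bounded, with a median log2 difference of 0.01 and a range of -0.03 to 0.06. Over all bright genes, 13.7% were higher and 18.8% lower in all 4 pairs and 94.4% were bounded. After quantile normalization of the arrays 1 of the 31 was higher and 5 were lower, with a median of -0.01.

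The subunits that work with Tip60 also kept close to the control. Of 13 measured genes of the complex 12 were bright, and the 11 other than Tip60 were all bounded. The genes named in the next sentences, apart from His2Av, were named after their values were seen. The ATPase gene dom, whose product exchanges histone variants, measured 318 and 339 in intensity in the control and 303 and 271 with dTIP60WT. DMAP1, another subunit gene, had 184 and 193 in the control against 164 and 145 with dTIP60WT. Both were lower in all 4 pairs, by log2 differences of -0.19 and -0.29, and neither passed the test (limma, adjusted p = 1.00 and 0.964). For the paired ATPases Pontin and Reptin, the gene pont lay higher in all 4 pairs and rept lower, by 0.11 and -0.07. His2Av, the H2A variant that the complex acetylates and exchanges, was at 1777 and 1794 in the control and at 1745 and 1650 with dTIP60WT. It was lower in all 4 pairs by a log2 difference of only -0.07.

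The bright genes of other chromatin enzymes were bounded too. Of 9 bright genes for other histone acetyltransferases and for deacetylases, 6 were lower and 0 higher in all 4 pairs, beside 18.8% and 13.7% of all bright genes. Of the 9, 0 were called and all were bounded, with a median of -0.10. The widest difference was that of nej, the gene of the CBP acetyltransferase, named for that reason, at 156 and 134 in the control and 110 and 92.2 with dTIP60WT (log2 difference -0.52, 95% interval -0.95 to -0.09). Sirt4, a mitochondrial sirtuin gene, had 271 and 278 against 254 and 260. HDAC1, a deacetylase gene, overlapped between the groups, with 309 and 269 in the control and 308 and 291 with dTIP60WT. Chromatin remodelling, Polycomb and Trithorax genes had 3 lower and 0 higher of 13 bright members, a lower share near that of all bright genes, and all 13 were bounded. After quantile normalization 4 in place of 6 of the 9 enzyme genes were lower and 0 higher, and the remodelling list had 1 higher and 1 lower.

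Across all bright probe sets, 914 (13.5%) were higher and 1271 (18.8%) lower in all 4 pairs. Among all tested probe sets the shares were 16.3% in each direction, and with a difference of at least 1.5-fold they were 5.59% higher and 4.79% lower. The balance between the directions depended on how the arrays were scaled. After division of each array by its median there were 662 higher and 1357 lower, and after quantile normalization 1342 higher and 980 lower. The higher ones made up 41.8% of the recurring shifts as deposited, 32.8% after median scaling and 57.8% after quantile normalization. The shifts were small, with a median fold of 1.09 for the higher and 1.11 for the lower. A difference of at least 1.2-fold was seen for 130 higher and 294 lower probe sets, of 1.5-fold for 28 (0.415%) and 66 (0.978%), and of 2-fold for 11 and 25.

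Of 12 antimicrobial peptide genes measured, 3 were bright, and these were lower with dTIP60WT in all 4 pairs, beside 18.8% of all bright genes. Mtk and Drs were bright only through the control arrays, so that this count is not independent of the filter. Antimicrobial peptide genes are targets of the Toll and Imd pathways, and the fat body and hemocytes release their products into the blood against bacteria and fungi. Mtk, the gene of the antifungal and antibacterial peptide metchnikowin, measured 221 and 377 in intensity in the control and 40.4 and 35.6 with dTIP60WT. Drs, the gene of the antifungal drosomycin, had 886 and 184 in the control against 57.5 and 46.7 with dTIP60WT. DptB, a diptericin gene of the Imd pathway, had 267 and 414 against 181 and 213. For each, the lower control array stood above the higher dTIP60WT array, although the 2 control arrays of Drs differed several-fold from each other.

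The log2 differences were -2.93 for Mtk (95% interval -4.19 to -1.67), -2.96 for Drs (-5.04 to -0.89) and -0.76 for DptB (-1.61 to 0.09). None passed the test over all probe sets (limma, adjusted p = 0.497, 0.720 and 0.932). Of the 3, 0 were bounded. Without control array 1 the difference of Drs was -1.83, and without control array 2 it was -4.10. AttD, an attacin gene named after its values were seen, was dimmer, at 90.3 and 58.5 in the control and 6.43 and 12.4 with dTIP60WT, a log2 difference of -3.03, and it was among the 23 calls of the trend and robust fit. Of the whole list, 7 genes were lower in all 4 pairs and 2, CecB and Drsl4, were higher, at low intensities. Over all 11981 genes, 2015 were lower and 1884 higher in all 4 pairs. The median log2 difference was -0.61 over the 12 genes, -0.47 without control array 1, and -0.32 with 16 added to each intensity.

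Recognition and signalling genes of immunity mostly had smaller differences. PGRP-SB1, which encodes a secreted peptidoglycan recognition protein, had 153 and 311 in the control against 58.0 and 53.7 with dTIP60WT (log2 difference -1.96, 95% interval -4.80 to 0.87). The fit took its spread from all 6 arrays, including dTIP60E431Q arrays at 69.0 and 541, and the gene was not called. The gene pirk, named after its values were seen, encodes an inhibitor of the Imd pathway and had 233 and 215 in the control against 89.0 and 151 with dTIP60WT (-0.95). The NF-κB gene Rel, likewise named afterwards, was at 275 and 281 in the control and at 244 and 229 with dTIP60WT (-0.23). The IκB gene cact was at 546 and 546 against 516 and 469 (-0.15). In contrast dl, also named afterwards, the NF-κB gene of the Toll pathway, lay higher in all 4 pairs, by 0.15. Of 13 bright genes in this list 6 were lower and 1 higher in all 4 pairs, beside 18.8% and 13.7% of all bright genes, and 11 were bounded. PGRP-SB1, among the 6 lower, was bright only through the control arrays, so that this count is not independent of the filter.

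**Figure D2:**
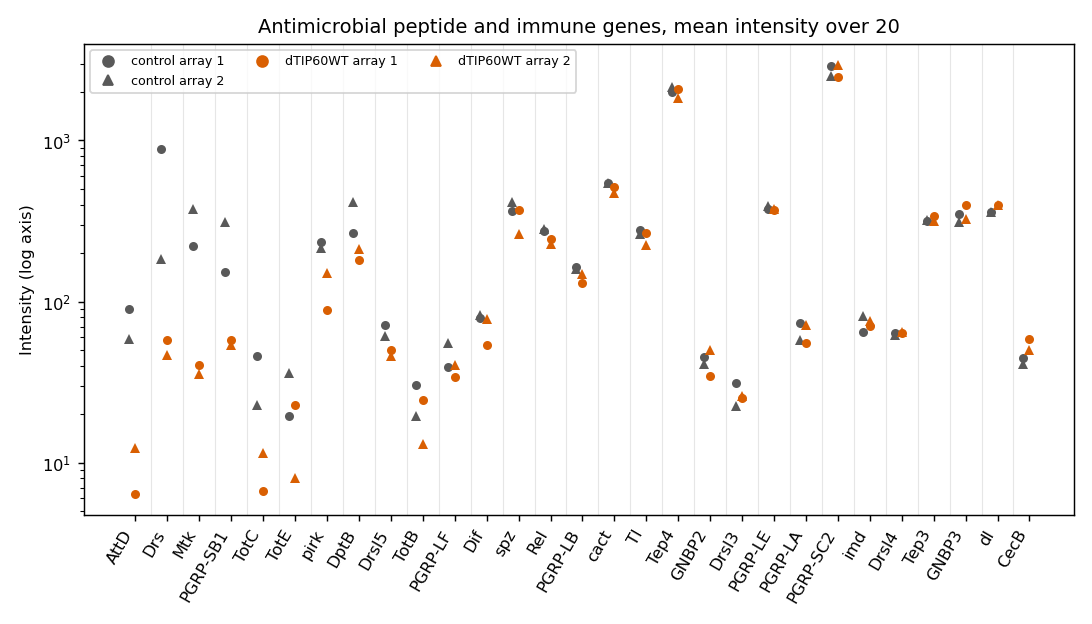
Intensity on a log axis of each antimicrobial peptide and immune gene with a mean above 20, on the 2 control arrays (grey) and the 2 dTIP60WT arrays (orange), with circles for array 1 and triangles for array 2. Genes are ordered by log2 difference, and AttD, Drs, Mtk and PGRP-SB1 show both dTIP60WT arrays well below both control arrays.

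Markers of blood cells, which take part in the immune response, were also counted. Of 14 bright hemocyte and basement membrane genes 4 were lower and 0 higher in all 4 pairs, beside 18.8% and 13.7% of all bright genes, with a median of -0.19. Over all 17 measured the median was -0.19 too, and -0.01 without dTIP60WT array 2. The summed intensity of the 6 hemocyte markers was 3162 and 2439 in the control and 2453 and 2126 with dTIP60WT, so that the 2 groups overlapped. The prophenoloxidase gene PPO2 had 1299 and 927 in the control against 916 and 862 with dTIP60WT, and the hemolectin gene Hml had 355 and 283 against 297 and 189, with overlap. Both were named after their values were seen. Their part in the immune differences was not tested.

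The 12 bright genes lower in all 4 pairs with the widest gap between the groups were Mtk, lectin-24A, Drs, CG15784, CG7406, CG10081, PGRP-SB1, CG16775, CG31041, CG11313, CG14499 and CG8093. Since they were chosen by this difference, their values are a description. lectin-24A, a C-type lectin gene, had 363 and 500 in the control against 88.6 and 91.1 with dTIP60WT (log2 difference -2.24, limma, adjusted p = 0.329). The brightest was CG11313, at 2511 and 2773 in the control and at 1117 and 1114 with dTIP60WT (-1.24, adjusted p = 0.419). CG15784 had 1117 and 1658 against 381 and 343. The groups were well apart in these 3 genes, and the control arrays were close together for CG11313 alone.

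CG7406 had the widest difference of the 12 (-3.49) but also the widest spread, with 47.9 and 396 in the control and 9.03 and 16.7 with dTIP60WT. Its difference was -1.97 without control array 2 and -5.01 without control array 1. The other 5 genes, CG10081, CG16775, CG31041, CG14499 and CG8093, lay between 144 and 298 in the control and between 40.3 and 119 with dTIP60WT. Their log2 differences ran from -1.54 to -1.91. For all 12 but CG15784 and CG11313, both dTIP60WT values were at or under 119, so that these genes were bright mainly through the control arrays.

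At the other end, the 12 bright genes higher in all 4 pairs with the widest gap were Tip60, Kmn1, nol, Cyp6a8, Lime, CG14273, CG11300, mRRF1, CG32198, CG14275, vanin-like and Ptth. They were likewise chosen by this gap, so that their values, intervals and adjusted p are a description. The control means of Tip60, Kmn1, Cyp6a8, Lime, CG14275 and Ptth lay below the level defined as bright. These genes were bright only through the dTIP60WT arrays, so that the brightness filter was not independent of the difference. Kmn1, which encodes a protein of the kinetochore, had 54.9 and 59.9 in the control against 165 and 182 with dTIP60WT (log2 difference 1.60, 95% interval 1.26 to 1.94; limma, adjusted p = 0.329 over all probe sets). The arrays of each genotype were close together for this gene. Lime, the gene of a zinc-finger transcription factor that links immunity and metabolism, had 80.7 and 63.0 against 179 and 161 (1.25). The gene mRRF1, for the factor that recycles mitochondrial ribosomes, had 215 and 210 against 463 and 397 (1.01). Ptth encodes the brain hormone that prompts the prothoracic gland to make ecdysone, and it had 106 and 86.8 in the control against 163 and 167 with dTIP60WT (0.78, 95% interval 0.38 to 1.19). For none of the 3 did the groups overlap, and none was called over all probe sets.

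Cyp6a8, a cytochrome P450 gene, had 98.1 and 89.6 in the control against 203 and 250 with dTIP60WT (1.26), and its limma adjusted p was 0.425, with a range of 0.0184 to 0.864 over the alternatives. Among the 12 genes, the widest difference after Tip60 was that of nol, with 204.96 and 393 against 1210 and 890 (1.87). CG32198 and CG11300 were much brighter, at 4036 and 1978 against 7112 and 6685 for the former and at 1074 and 573 against 2291 and 2045 for the latter. Their control arrays were far apart, and without control array 1 the difference of CG32198 was 1.80, without control array 2 it was 0.77.

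**Figure D3:**
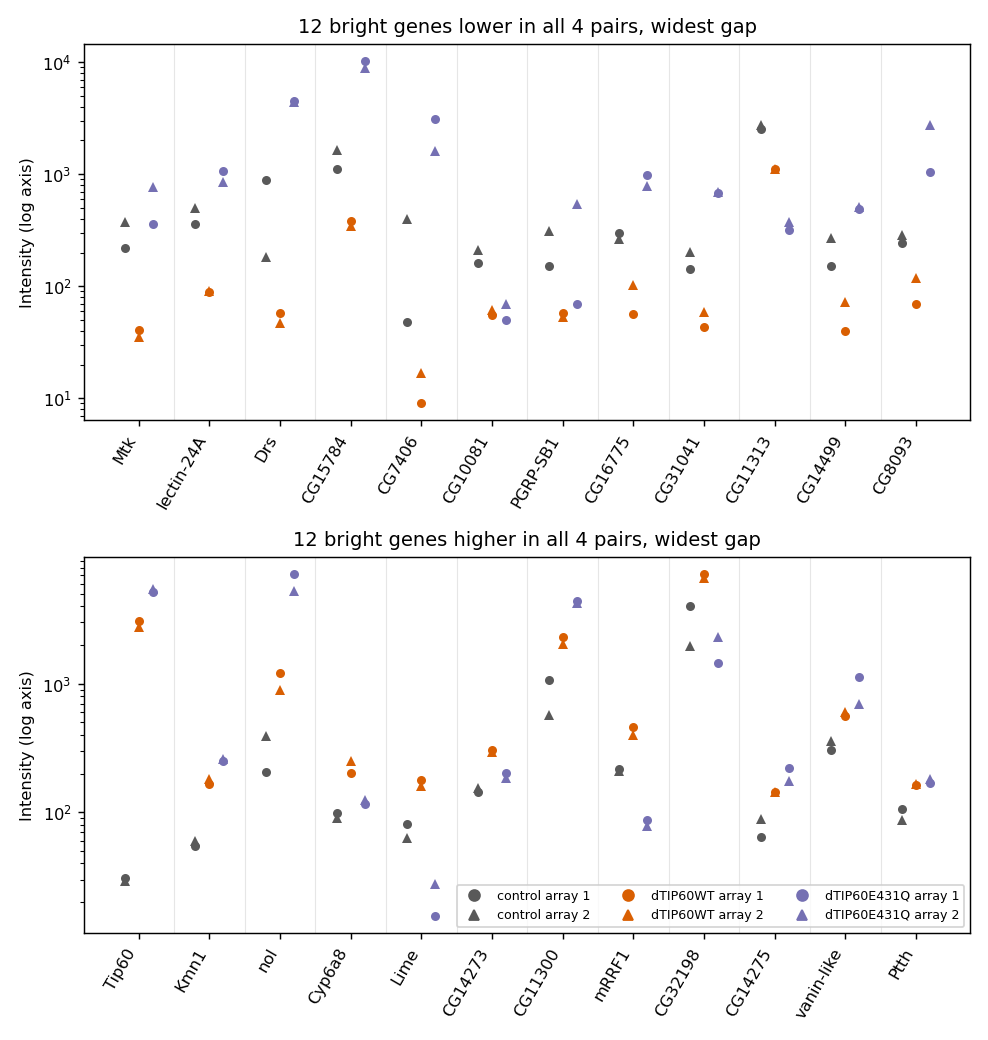
Intensity on a log axis of the 12 bright genes lower (top) and the 12 higher (bottom) in all 4 pairs with the widest gap, on the control (grey), dTIP60WT (orange) and dTIP60E431Q (purple) arrays, with circles for array 1 and triangles for array 2. Control and dTIP60WT points never overlap, since the genes were chosen for that, and control pairs such as those of Drs and CG7406 lie far apart.

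The genes beside the named ones on the chromosome were counted too. Up to 2 neighbours on each side gave 83 measured genes, without those named themselves, of which 45 were bright. Of these 6 were higher and 10 lower in all 4 pairs, beside 13.7% and 18.8% of all bright genes. Next to Tip60, Nsun2 and tyf overlapped between the groups, and GlcAT-I was higher by a log2 difference of 0.13. The members of a pair near each other on the left arm of the second chromosome, CG14273 and CG14275, were both higher, by 1.01 and 0.93, while witty between them was dim and lower (-0.14). Neighbours could also lie on opposite sides. The gene vanin-like, of the pantetheinase family, was higher, at 307 and 359 against 563 and 602. Btnd beside it was lower, at 173 and 202 against 66.5 and 85.0 (-1.31), and so was Efr next to Btnd (-0.48). On the other side of vanin-like, the dim genes CG43090 and CG32751 were lower (-0.61) and higher (1.69) in all 4 pairs. These neighbours were named after their values were seen.

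The insertion of the dTIP60WT line is on the second chromosome, and the shares of recurring shifts were counted by chromosome arm. Of bright genes, 14.5% were higher and 20.5% lower on 2L, 14.1% and 19.2% on 2R, 12.9% and 16.4% on 3L, 11.6% and 17% on 3R, and 16.8% and 22% on X. The second chromosome thus had shares between those of the third and of X.

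Respiratory chain and ATP synthase genes leaned upward by very small amounts. These nuclear genes encode subunits of the complexes that make ATP in the mitochondrial inner membrane. Of 55 bright members 28 were higher and 0 lower in all 4 pairs, beside 13.7% and 18.8% of all bright genes. Of the 55, 0 were called and 54 were bounded, and the median log2 difference was 0.06. Over all 75 measured members, the dim ones included, 31 were higher and 5 lower, beside 1884 and 2015 of all 11981 genes. ATPsynF, an ATP synthase subunit gene, had 9286 and 9523 in the control against 10141 and 9821 with dTIP60WT. ND-B14.7, a complex I gene named after its values were seen, had 2426 and 2524 against 2771 and 2719, a log2 difference of 0.15. The groups did not overlap for these 2 genes, yet the differences were under 1.2-fold for all 55 bright members.

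The direction was the same under each scaling for this list, with 12 higher and 0 lower after median scaling and 33 higher and 0 lower after quantile normalization. In the 4 single pairs the median over its 75 measured members ran from 0.01 to 0.10, next to median shifts over all bright probe sets of 0.04 between the control arrays and -0.04 between the dTIP60WT arrays. Mitochondrial ribosomal protein genes had 21 higher and 1 lower of 69 bright members, beside the same shares, with all 69 bounded and a median of 0.03. There were 8 higher after median scaling and 36 after quantile normalization, and 1 lower under each. mRpL47, of the large mitochondrial subunit, had 1444 and 1653 in the control against 1742 and 1701 with dTIP60WT (0.16). Glycolysis and tricarboxylic acid cycle genes did not lean that way, with 1 higher and 2 lower of 18 bright members, beside the same shares. Gapdh1 had 10308 and 10775 against 10233 and 10693.

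Genes of Myc and the nucleolus, where ribosomes are assembled, leaned downward. Of 13 bright members 8 were lower and 0 higher in all 4 pairs, beside 18.8% and 13.7% of all bright genes. All 13 were bounded, and the median was -0.11. Nop56, a gene for the core of small nucleolar RNA particles, had 813 and 795 in the control against 698 and 670 with dTIP60WT (log2 difference -0.23, 95% interval -0.62 to 0.15). Nph, a nucleophosmin gene, had 1535 and 1529 against 1480 and 1460. Nlp, a nucleoplasmin gene and the brightest of the list, overlapped. Over all 14 measured members the median was -0.10, and -0.17 without dTIP60WT array 1, and after quantile normalization 7 were lower and 1 higher.

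Detoxification genes differed among themselves. Of 40 bright cytochrome P450 genes 15 were lower and 3 higher in all 4 pairs, beside 18.8% and 13.7% of all bright genes, with a median of -0.12, and 34 were bounded. Cyp6a23, named after its values were seen, had 1439 and 1527 in the control against 1021 and 1033 with dTIP60WT (-0.53, 95% interval -0.84 to -0.22). This was opposite to its relative Cyp6a8. The dim Cyp6a17, also named afterwards, had 14.5 and 10.7 in the control against 124 and 140 with dTIP60WT (3.40). It was among the calls of the trend and robust fit, while Cyp6a20, dim and named afterwards too, was lower (-0.72). Cyp4d1, one of the brightest members, had 2125 and 2217 against 1889 and 1926. Of 40 bright glutathione and UDP-glycosyl transferase genes 12 were lower and 3 higher, beside the same shares. GstD1, a glutathione transferase gene, was at 9969 and 10247 in the control and at 9611 and 9614 with dTIP60WT, a log2 difference of only -0.07.

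The metallothionein genes, whose products bind copper and other metals, were mostly higher with dTIP60WT. MtnA measured 6472 and 6642 in intensity in the control and 9316 and 9788 with dTIP60WT. The arrays of each genotype were close together, and the log2 difference was 0.54 (95% interval 0.24 to 0.85; limma, adjusted p = 0.633). MtnD and MtnB, named after their values were seen, lay higher in all 4 pairs too, MtnD by 0.72 with 843 and 1005 against 1380 and 1669, and MtnB by 0.45 with 195 and 145 against 213 and 247. MtnC was dim and overlapped. Among the other antioxidant and metal genes, the ferritin genes Fer1HCH and Fer2LCH overlapped between the groups. The list as a whole had 4 higher and 3 lower of 15 bright members, beside 13.7% and 18.8% of all bright genes.

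Other groups were described by their bounds. All 15 bright muscle genes were bounded, and Mlc1, a myosin light chain gene, had 13696 and 14236 in the control against 14302 and 13920 with dTIP60WT. All 26 bright proteasome genes and all 16 aminoacyl-tRNA synthetase genes were bounded as well, with medians of 0.00 and -0.05. In the fat body, the larval serum protein gene Lsp2 had 15146 and 13517 in the control against 13420 and 13157 with dTIP60WT, lower in all 4 pairs by -0.11, and 10 of 11 bright genes of its list were bounded. In the midgut 5 of 32 bright digestive enzyme genes were higher and 2 lower in all 4 pairs, beside 13.7% and 18.8% of all bright genes. Of the 32, 25 were bounded, a smaller share than the 94.4% of all bright genes. The brightest, the protease gene Jon25Biii, had 13751 and 15026 against 14270 and 15501. Of 18 bright heat shock and chaperone genes 3 were higher and 3 lower in all 4 pairs, beside the same shares. Of the 18, 17 were bounded. The other was Hsp26, named after its values were seen, at 241 and 297 in the control and 337 and 468 with dTIP60WT (0.57, 95% interval -0.03 to 1.17).

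Some genes varied more within a genotype than between genotypes. Several glue genes of the salivary gland and other late larval genes were high in control pool 1 and dTIP60WT pool 2 and low in the other pools. Sgs7, a glue gene, had 359 and 7.95 in the control against 6.46 and 434 with dTIP60WT, and the fat body gene Fbp1 had 1329 and 7.09 against 5.01 and 1015. Several cuticle genes of the Tweedle family were instead high in control pool 2 and, in part, in dTIP60WT pool 2. TwdlM had 290 and 3051 in the control against 246 and 1188 with dTIP60WT. These genes were named after their values were seen.

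Only 3 of 16 bright Tweedle and Osiris genes were bounded, with a list median of -0.55. Over all 48 measured members the median was -0.42, and 0.12 without control pool 2, and in the single array pairs it ran from -1.13 to 0.16. Cuticle protein genes, with 10 lower and 4 higher of 49 bright members, a lower share near the 18.8% of all bright genes, held genes of the same kind, and Cpr64Ad, named after its values were seen, had 393 and 2244 in the control against 204.68 and 378 with dTIP60WT. The brightest cuticle genes were steady, and Cpr47Eg had 14411 and 15446 against 15510 and 14698. The part of this variation between pools in the recurring shifts was not tested.

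**Figure D4:**
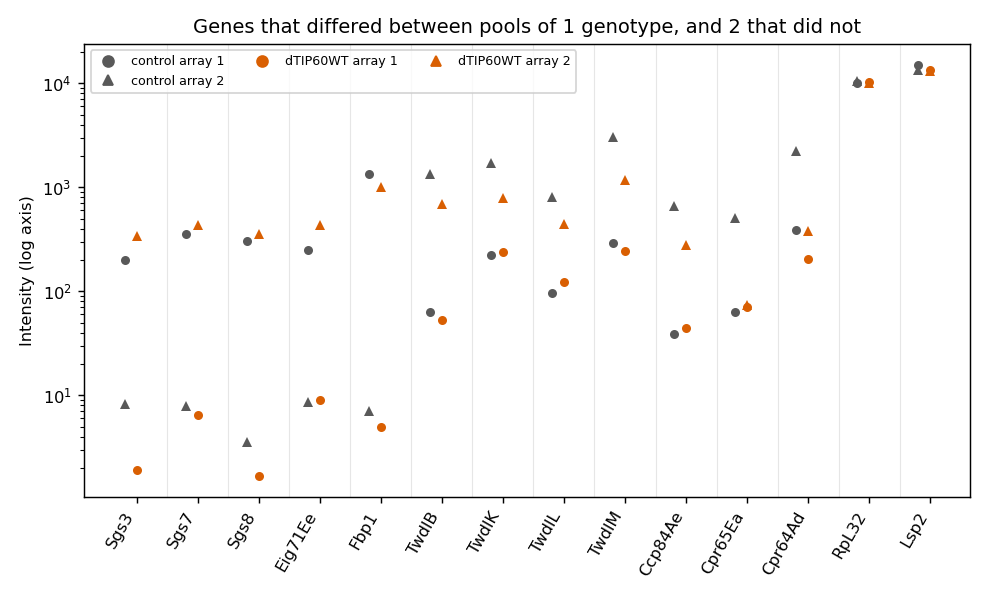
Intensity on a log axis of 5 glue or late larval genes, 7 cuticle genes and, for comparison, RpL32 and Lsp2, on the 2 control arrays (grey) and the 2 dTIP60WT arrays (orange), with circles for array 1 and triangles for array 2. The first 5 genes are high in control pool 1 and dTIP60WT pool 2 and low in the others, the cuticle genes are highest in control pool 2, and RpL32 and Lsp2 are level in all 4.

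The transgene with the substitution was measured in the same series and gives a scale. Both comparisons share the control arrays and are given side by side. With dTIP60E431Q limma called 21.4% of bright probe sets against the control and 22.4% against dTIP60WT (14.4% and 14.8% of all tested), next to 0.0148% with dTIP60WT against the control. The median log2 difference of the bright respiratory chain genes was -1.05 with dTIP60E431Q and 0.06 with dTIP60WT. For mitochondrial ribosomal proteins it was -1.05 and 0.03, and for endoplasmic reticulum and Golgi genes -1.24 and 0.01. For Tweedle and Osiris genes it was 3.22 and -0.55. Among the groups in this paragraph, except the last, whose pools differed, the medians with dTIP60WT were within 0.06 of 0. Some other lists lay farther from 0 over their bright genes, such as hemocyte and basement membrane genes (-0.19) and immune recognition and signalling genes (-0.14). The 3 bright antimicrobial peptide genes had a median of -2.93.

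**Figure D5:**
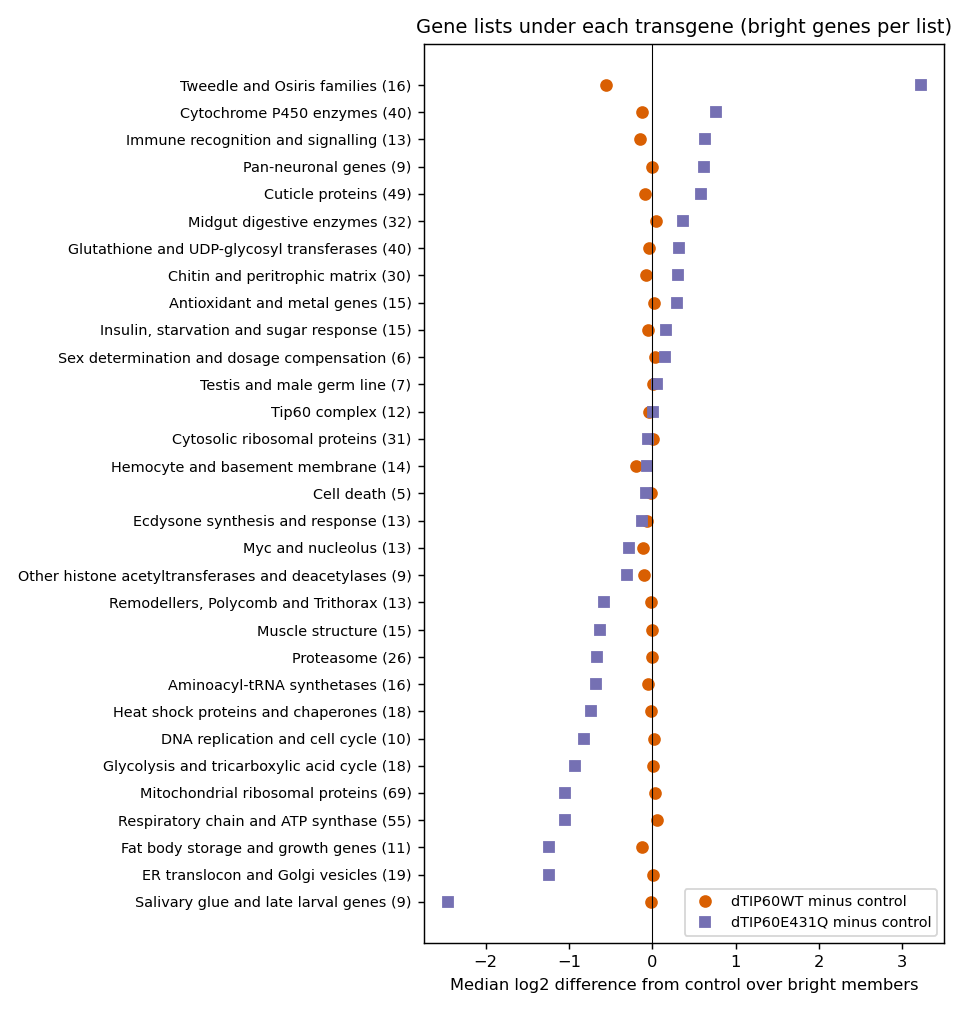
Median log2 difference from the control over the bright genes of each list with at least 5 of them (number in parentheses), for dTIP60WT (orange circles) and dTIP60E431Q (purple squares), both set against the same 2 control arrays. All dTIP60WT medians lie between -0.55 and 0.06, and those of dTIP60E431Q range from -2.45 to 3.22.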

How the data were processed

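RNA of 35 whole larvae per array was labelled and hybridised at a service laboratory; the labels give 500 ng of total RNA and the methods 1 µg for cDNA synthesis. The deposited values are linear intensities. The authors scanned with GCOS, and dChip then served for normalization and for the model-based expression index of each probe set. Versions, baseline array and probe model are not given in the sources used here, nor are detection calls, so that no background level was set. The number of arrays limits the precision.

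The 183 AFFX control probe sets were left out and log2 of the intensity was taken without a pseudocount. Of the tested probe sets, 13646 had exactly 1 symbol in the platform annotation (2016), 402 several and 4721 none; 13543 of the first were in the reference gene table (assembly release 6), which gave chromosome arms and neighbours. limma 3.58.1 in R 4.3.3 (statmod 1.5.0) fitted 1 mean per genotype to all 6 arrays (3 residual and 1.43 prior degrees of freedom, median residual SD 0.241). Calls needed 2-fold or more and p below 0.05 after Benjamini-Hochberg adjustment over the whole table. The fit was tested on simulated data. Alternatives were other scalings, a pseudocount of 16, a floor, a replicate block, the 4 arrays alone, trend and robust priors, bright probe sets alone, other brightness and fold limits, and each array left out.

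Named genes are Tip60, RpL32, the 12 higher and 12 lower single-symbol bright genes with the widest gap (the smallest of the 4 log2 differences), and the 3 brightest members of each of 35 gene lists. A gene was represented in lists by its brightest single-symbol probe set. The comparison, lists and members were chosen with earlier results of these data known. Replicate numbers did not pair the arrays (correlation of deviations -0.01 between control and dTIP60WT), so that no block was used. Plots were made with matplotlib 3.10.9 under Python 3.11.15.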

Additional observations from a re-analysis of the deposited data

Results flagged for a closer look

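For 14 of the 24 genes named for the widest gap, the difference between the 2 transgenes was itself past the threshold (limma, adjusted p below 0.05 and at least 2-fold). These genes were chosen for a gap between the control arrays and the same dTIP60WT arrays that enter this test, so that the test is not independent of the choice. Of the 100 genes named only as the brightest members of a list, 20 were past the same threshold. Over all bright probe sets the share was 22.4%, and over all tested ones 14.8%, so that these 100 genes were near the general share.

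Of the genes lower with dTIP60WT, 9 were past this threshold and higher with dTIP60E431Q than with dTIP60WT. The immune genes among them were Drs, with 4491 and 4423 on the dTIP60E431Q arrays (dTIP60E431Q minus dTIP60WT on the log2 scale 6.43, adjusted p = 0.0103), Mtk, with 358 and 772 (3.79, adjusted p = 0.0108), and lectin-24A, with 1076 and 856 (3.42, adjusted p = 0.00516). The others were CG7406 (7.51, adjusted p = 0.0155), CG15784 (4.72, adjusted p = 0.00506), CG8093 (4.22, adjusted p = 0.0119), CG31041 (3.77, adjusted p = 0.00529), CG16775 (3.53, adjusted p = 0.00683) and CG14499 (3.21, adjusted p = 0.0114). CG11313 differed the other way, lower with dTIP60E431Q, at 315 and 373, than with dTIP60WT (-1.70, adjusted p = 0.00623).

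Of the genes higher with dTIP60WT, Lime (-3.03, adjusted p = 0.00842), mRRF1 (-2.39, adjusted p = 0.00506) and CG32198 (-1.92, adjusted p = 0.0400) were lower with dTIP60E431Q than with dTIP60WT. Lime had 15.5 and 27.8 and mRRF1 86.4 and 77.6 on the dTIP60E431Q arrays. nol was higher still with dTIP60E431Q, at 7066 and 5298 (2.56, adjusted p = 0.0166). Other named genes lay on the same side of the control with both transgenes, among them Kmn1 (dTIP60E431Q minus control 2.16), Ptth (0.87) and CG10081 (-1.65). The single-symbol bright probe sets with a recurring shift of at least 1.5-fold were counted, against the same control arrays. Of 24 higher ones, 16 lay above the control with dTIP60E431Q and 8 below. Of 55 lower ones, 17 lay below the control and 38 above.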

How the results depend on the processing

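The leave-one-out counts of recurring shifts, the 2-group fits with a block and the scaling of list counts were chosen after the values were seen. The single call, of Tip60, was lost with the replicate number as a block (0 calls, Tip60 6.59 at adjusted p = 0.107), in a fit of the 4 arrays alone (0 calls, 6.59 at 0.121) and with any 1 array left out (0 calls, 6.52 to 6.66), where fewer degrees of freedom remain and a lone array is assumed to vary like the other groups. The numbers do not pair the arrays, so that this loss does not speak of a smaller change. Within bright probe sets alone deviations correlated at -0.15 across the numbers, and in the 4-array fit both the block as numbered and the crossed block gave 0 calls. The count was 23 with trend and robust options and 2 with bright probe sets only. Without adjustment and with a fold over 2 it was 497 by limma's p and 98 by the t-test on linear intensities. Of these 98, 0 were left after Benjamini-Hochberg. The count was 1 under both scalings, the pseudocount, the floor and no fold threshold. Recurring shifts numbered 609 higher and 845 lower above an intensity of 200, 130 and 294 at 1.2-fold, 28 and 66 at 1.5-fold, and 1639 to 2423 higher and 1992 to 2991 lower with 1 array left out, since only 2 pairs then remain. Bounded bright probe sets stayed between 86.2% and 96.8% in the fits tried and were 72.6% for a 1.5-fold margin. Of the values of named genes 4 moved by more than the spread between arrays and 188 did not, and of list medians 21 did and 294 did not. Dim transcripts, and list medians under 0.1, are at the limit of these arrays.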
